A study of Mus musculus with 6 samples.

Results

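The genes described here encode the IkB kinases (IKKs) and the kinases and adaptors that switch them on. They were taken by gene symbol from the deposited expression table, which holds 17030 genes, and all 10 were found: Ikbkb, Chuk and Ikbkg of the IKK complex, the IKK-related kinases Ikbke and Tbk1, Map3k7 with Tab1, Tab2 and Tab3 of the TAK1 complex, and Map3k14, which encodes NIK. The rule used gene names and no measured values, although it was set with earlier results of these data known. Mononuclear cells had been isolated from skeletal muscle, and their RNA sequenced, in male C57BL/B6 mice with implanted LLC tumours (Lewis lung carcinoma, whose growth is accompanied by muscle wasting). The 3 control libraries came from mice of genotype IKKbfl/fl, in which both Ikbkb alleles were floxed and no Cre was present. The 3 Pax7-CreERT libraries came from mice of genotype Pax7 Cre ErT x IKKbfl/fl, which had the same floxed alleles and a tamoxifen-activated Cre recombinase driven by Pax7, a gene of muscle satellite cells (the stem cells of the fibres). All groups carried the tumour and received tamoxifen from day 10 to day 14 after injection of the tumour cells. Ages were not given in the sources used here, and neither was whether a library came from 1 mouse or from pooled mice, so p-values measure the spread between libraries. There was no group with Cre and without floxed alleles, nor one without a tumour. The presence of Cre and any loss of Ikbkb that it drives therefore cannot be told apart.

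In canonical NF-kB signalling, receptors for TNF, interleukin-1 and microbial products recruit TAK1, which is bound by the adaptors TAB1, TAB2 and TAB3, to ubiquitin chains. TAK1 then activates the IKK complex of the kinases IKKb and IKKa, encoded by Ikbkb and Chuk, and the scaffold NEMO, encoded by Ikbkg. The complex phosphorylates the IkB proteins, which are degraded and release NF-kB. In the alternative pathway NIK activates IKKa, and NIK is held low mainly by degradation of the protein, so that its transcript alone does not set its amount. TBK1 and IKKe act mainly in interferon induction and autophagy, and Ikbke is itself known as a gene that inflammatory signals induce.

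Values are in CPM (counts of a gene per 1000000 counts assigned to genes), and the smallest step between low values put the depth at 4054000 to 13355000 assigned reads per library. At these depths 1 CPM was 4.05 to 13.4 reads. Control replicate 3 was the shallowest and stood apart: it lay at 51.6 on the first principal component, with the other 5 libraries between -17.0 and 0.20, and its haemoglobin share was 12.6% of all CPM, where the others had 1.84% to 4.83%. Markers of the labelled cells showed a preparation rich in vascular transcripts. Pecam1, an endothelial adhesion molecule, measured 1943 to 2645 CPM and Rgs5, a pericyte gene, 5338 to 8759 CPM, while the satellite cell gene Pax7 measured 10.9 to 21.6 CPM. The macrophage genes Csf1r and Adgre1 measured 18.5 to 37.6 and 2.85 to 5.18 CPM, and the T cell gene Cd3e, 0 to 0.987 CPM. Other macrophage genes were higher, and 8 macrophage markers together summed to 442 to 1156 CPM. A list of 7 markers of fibro-adipogenic progenitors (connective tissue cells of muscle) summed to 2345 to 4699 CPM. Values of the IKK genes are therefore sums over mixed cells. In such a sum, fewer cells of a type and less RNA per cell cannot be told apart.

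None of the 10 genes passed the test between the genotypes. With limma on log2(CPM + 1), 0 of 10 reached an adjusted p under 0.05, where 0.00677% of the 14763 tested genes did (1 gene), and 0 of 10 had an unadjusted p under 0.05, where 5.52% of tested genes did. The values of the 2 groups overlapped in all 10 genes, and the groups did not overlap in 11.0% of tested genes. Log2 fold changes, Pax7-CreERT minus control, lay above 0 in 6 of the genes and below 0 in 4, with a median of 0.023, beside a median of 0.089 and 68.0% above 0 over all tested genes. The median size of the fold change without regard to sign was 0.055 for these genes and 0.15 for all tested genes. The 2 sets were not matched by level, and the fold changes of faint genes have larger errors. Ikbke had the largest fold change of the 10, at 0.67, and in the other 9 genes it ran from -0.11 to 0.14. All 10 passed the filter of 1 CPM in at least 3 libraries.

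**Figure D1:**
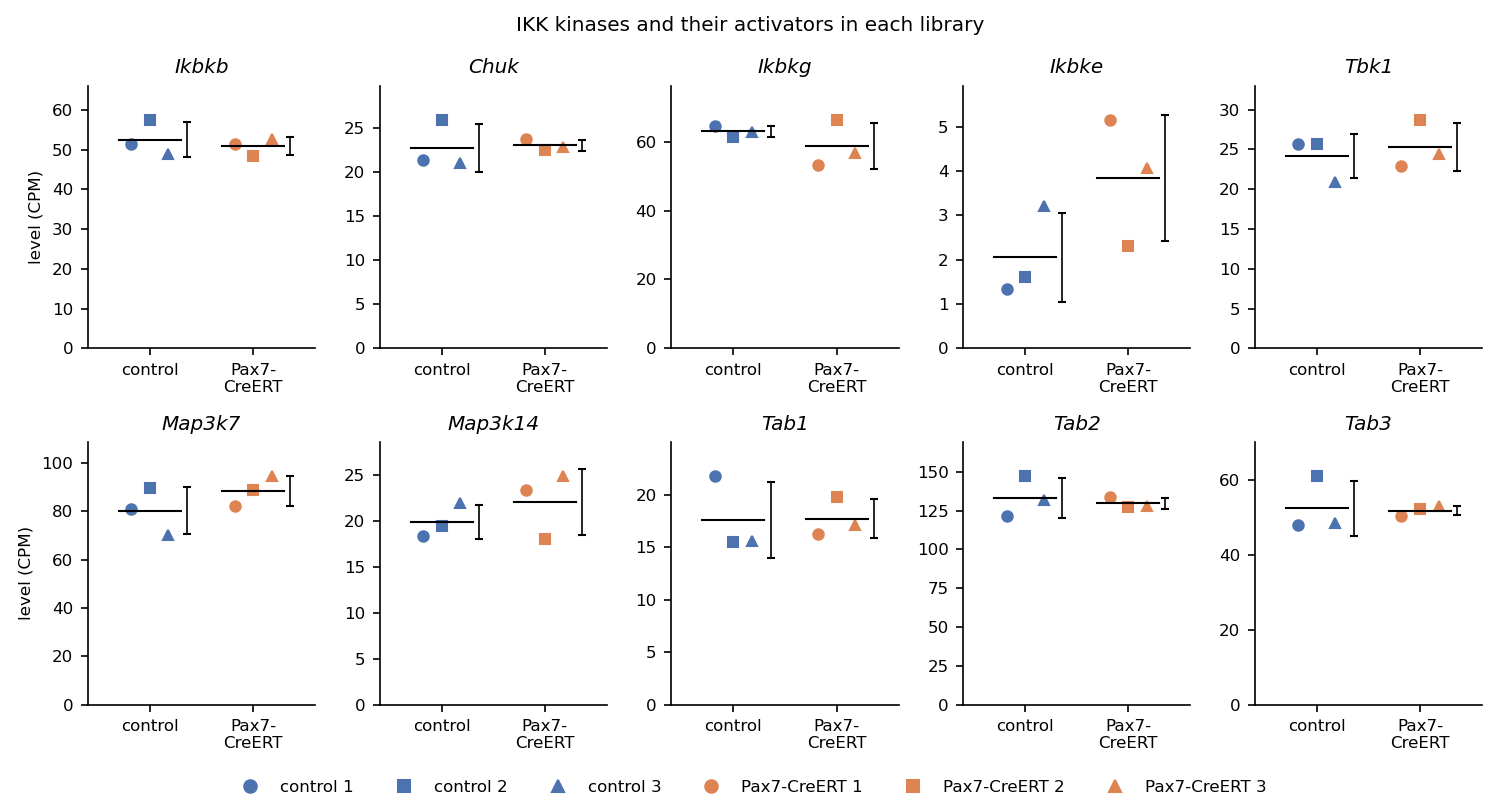
Level in CPM (vertical axis of each panel, starting at 0) of the 10 genes in the 3 control libraries (blue) and the 3 Pax7-CreERT libraries (orange), with marker shapes for replicates 1, 2 and 3, a line at the group mean and a bar for ± 1 SD. The groups overlap in all 10 panels, and the Ikbke panel has the widest relative spread, from 1.34 to 5.15 CPM.

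Ikbkb, the targeted gene, encodes the kinase that phosphorylates IkB proteins and lies on chromosome 8 of mm10 at 22659205 to 22706583. Its level was 51.4, 48.4 and 52.7 CPM in Pax7-CreERT replicates 1, 2 and 3 and 51.3, 57.4 and 48.8 CPM in control replicates 1, 2 and 3. All 6 libraries lay within 1.19-fold of each other, and the highest was control replicate 2. The variance between the Pax7-CreERT libraries was 0.754 times that expected from counting reads alone, and between the controls 2.05 times. Such ratios, here and below, rest on 3 libraries each and are therefore uncertain. Whether they differed between the genotypes was not tested. The log2 fold change was -0.044 (SE 0.13, limma adjusted p = 0.970), and it turned to 0.021 without control replicate 2. Its 95% interval corresponds to a change of between -20.4% and 18.3% in CPM + 1. Gene-level values join the floxed exons to the rest of the transcript and the satellite cells to all other cells, so recombination in satellite cells was not measurable here. Summed over the 9 satellite cell markers of the list used, the level was 363 to 413 CPM in the Pax7-CreERT libraries and 338 to 398 CPM in the controls, although some of these genes, such as Vcam1, are also expressed by vascular cells.

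Chuk, which encodes IKKa, the kinase that serves both pathways, lies on chromosome 19 at 44073334 to 44107477. Its level was 23.8, 22.5 and 22.8 CPM with Cre and 21.4, 25.9 and 21.0 CPM in the controls. The 3 Pax7-CreERT values fell inside the control range. The mean was 23.0 ± 0.644 CPM with Cre and 22.7 ± 2.71 CPM in the controls (SD, n = 3 each). The log2 fold change was 0.023 (95% interval -0.31 to 0.36, limma adjusted p = 0.985). The sign of this value turned when libraries were rescaled by the median ratio (-0.067) or by quantiles (-0.064), and in 6 of 12 alternatives in all.

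Ikbkg encodes NEMO, the regulatory scaffold that binds ubiquitin chains, and lies on the X chromosome at 74393291 to 74453778. Its level was 53.2, 66.3 and 56.8 CPM in the Pax7-CreERT libraries and 64.7, 61.4 and 62.9 CPM in the controls. Pax7-CreERT replicates 1 and 3 lay below all controls and replicate 2 lay above them. The control variance was 0.231 times the counting variance and the Pax7-CreERT variance 6.19 times. Its log2 fold change of -0.11 (95% interval -0.40 to 0.19, limma adjusted p = 0.932) kept its sign in all 12 alternatives. Annotated exons of Ikbkg share 418 bases with G6pdx, a gene of the pentose phosphate pathway on the opposite strand. Whether the authors' counting used strand is not given in the sources used here, so reads in the shared bases could belong to either gene. G6pdx measured 18.6, 19.99 and 18.3 CPM in the Pax7-CreERT libraries and 12.7, 18.6 and 23.9 CPM in the controls.

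**Figure D2:**
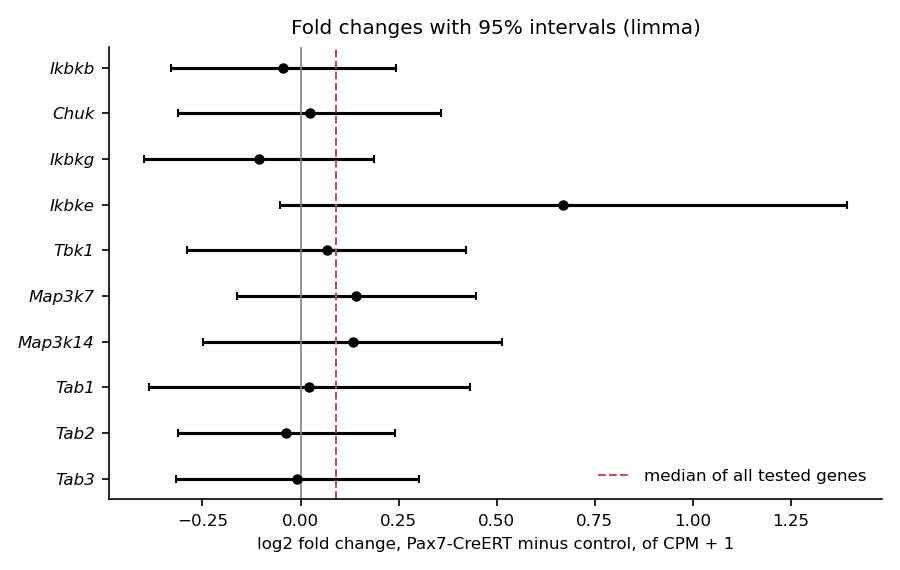
Log2 fold change of CPM + 1, Pax7-CreERT minus control, for each gene (points) with its 95% interval from limma (bars, 3 libraries per group); the grey line marks 0 and the dashed line the median of all tested genes, 0.089. All 10 intervals include 0, and that of Ikbke, from -0.053 to 1.39, is the widest.

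Ikbke encodes IKKe and lies on chromosome 1 at 131254602 to 131279563. It had the fewest reads of the 10 genes and the largest SD on the log2 scale. The level was 5.15, 2.32 and 4.07 CPM in Pax7-CreERT replicates 1, 2 and 3, from 49, 31 and 20 reads. In control replicates 1, 2 and 3 it was 1.34, 1.62 and 3.21 CPM, from 8, 12 and 13 reads. Pax7-CreERT replicates 1 and 3 lay above all controls, and replicate 2 lay below control replicate 3. The lowest and highest libraries differed 3.85-fold. The exact 95% Poisson interval of control replicate 1, the lowest library, was 0.577 to 2.64 CPM. That of Pax7-CreERT replicate 1, the highest library, was 3.81 to 6.81 CPM. These 2 intervals did not overlap, but the pair was picked as the extremes of 6 libraries. The intervals cover counting error only and make no allowance for that choice.

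The group means of Ikbke were 3.85 ± 1.43 and 2.05 ± 1.01 CPM (SD, n = 3 each). The ratio of the means was 1.87, while the log2 fold change of 0.67 (SE 0.32) was made on CPM + 1, a scale that shrinks the change of faint genes. Its size exceeded that of 97.1% of tested genes, and faint genes have the largest errors. The difference did not exceed the spread between libraries (95% interval -0.053 to 1.39, limma p = 0.0658, adjusted p = 0.896), and the exact permutation p was 0.2 (2-sided; 3 libraries against 3 allow no p under 0.1). The fold change ran from 0.48 without Pax7-CreERT replicate 1 to 0.93 without control replicate 3, and the lowest adjusted p in any alternative was 0.583. The variance between libraries was 3.96 times the counting variance in the Pax7-CreERT group and 2.48 times in the controls. Ikbke exons share 65 and 159 bases with a pair of antisense genes, Gm28913 and Gm28914, for which no values were used here.

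Markers of several cell types differed between the libraries as well. The summed level of 8 macrophage markers was 817, 579 and 571 CPM in the Pax7-CreERT libraries and 442, 460 and 1156 CPM in the controls. That of 4 B cell markers was 10.3, 9.51 and 59.6 CPM against 11.2, 9.83 and 115.2 CPM. Control replicate 3 was the highest control for both lists and for Ikbke. Pax7-CreERT replicate 1, the highest library for Ikbke, was second highest for macrophage markers and low for B cell markers. The 7 fibro-adipogenic progenitor markers summed to 4699, 2733 and 2345 CPM in the Pax7-CreERT libraries and 2388, 2410 and 3637 CPM in the controls. There Pax7-CreERT replicate 1 was the highest library and control replicate 3 the highest control. Pax7-CreERT replicate 3, second highest for Ikbke, was the lowest. Of the 4 T and NK cell markers in the table, 0 passed the filter. Of all the cell type lists summed, the groups failed to overlap only for the myofibre list and the pericyte and smooth muscle list. The 11 myofibre genes summed to 1991 to 2800 CPM with Cre and 967 to 1620 CPM without. For the 6 pericyte and smooth muscle genes the gap was narrow (8473 to 10653 against 6533 to 8463 CPM). Rgs5, from that list, overlapped by itself (6850 to 8759 against 5338 to 7024 CPM). Over all tested genes, taken singly, the groups did not overlap in 11.0%. No such share was computed for sums over lists. The part of any of these cells in the Ikbke values was not tested.

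**Figure D3:**
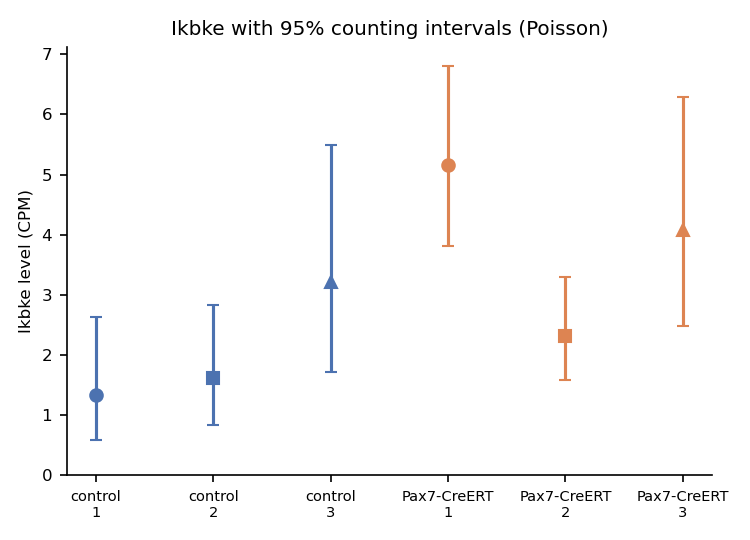
Ikbke level in CPM (vertical axis, starting at 0) in each of the 6 libraries, with exact 95% Poisson intervals for the number of reads counted (bars). The interval of Pax7-CreERT replicate 1 (3.81 to 6.81 CPM) lies above those of control replicates 1 and 2, and the intervals of the other Pax7-CreERT libraries overlap those of the controls.

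Tbk1, the broadly expressed partner of Ikbke, lies on chromosome 10 at 121546456 to 121586794. It stood at 22.9, 28.7 and 24.4 CPM with Cre and at 25.7, 25.7 and 21.0 CPM in the controls. Its highest value was in Pax7-CreERT replicate 2, the library of that group with the least Ikbke. Tbk1 had a log2 fold change of 0.067 (95% interval -0.29 to 0.42, limma adjusted p = 0.965), which turned to -0.023 with median ratio scaling.

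Map3k7, the gene of the TAK1 kinase, lies on chromosome 4 at 31964107 to 32023466. Its level was 82.2, 88.7 and 94.4 CPM with Cre and 81.1, 89.9 and 70.1 CPM in the controls. The Pax7-CreERT values started above control replicates 1 and 3, and control replicate 2 lay among them. The means of 88.5 ± 6.12 and 80.3 ± 9.92 CPM (SD, n = 3 each) gave a log2 fold change of 0.14 (95% interval -0.16 to 0.45, limma adjusted p = 0.911). It fell to 0.049 without control replicate 3.

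Tab1 encodes the adaptor that binds the TAK1 kinase domain and promotes its activation, and lies on chromosome 15 at 80133146 to 80161706. Tab1 stood at 16.3, 19.8 and 17.1 CPM with Cre and at 21.7, 15.5 and 15.5 CPM in the controls. Control replicate 1 held the highest value of all, and the other controls the lowest. The log2 fold change of 0.023 (95% interval -0.39 to 0.43, limma adjusted p = 0.988) turned sign in 6 of 12 alternatives.

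Tab2 and Tab3 encode the related adaptors that bind ubiquitin chains. Tab2, on chromosome 10 at 7905648 to 7956123, had 133.6, 127.0 and 128.2 CPM with Cre and 121.2, 147.0 and 131.7 CPM in the controls. Tab3, on the X chromosome at 85574022 to 85634469, measured 50.4, 52.1 and 52.9 CPM against 48.0, 60.9 and 48.4 CPM. The observed variances of Tab2 and Tab3 were 0.750 and 0.258 times the counting variance among the Pax7-CreERT libraries. Among the controls they were 6.95 and 5.76 times the counting variance. Control replicate 2 was the highest library for both, as it was for Ikbkb and Chuk. The log2 fold changes were -0.036 (limma adjusted p = 0.976) for Tab2 and -0.0082 (limma adjusted p = 0.994) for Tab3. Without control replicate 2 they turned to 0.036 and 0.10.

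Map3k14, the gene for NIK, lies on chromosome 11 at 103219764 to 103267401. Its level was 23.3, 18.05 and 24.8 CPM with Cre and 18.4, 19.4 and 22.0 CPM in the controls. As with Ikbke, Pax7-CreERT replicates 1 and 3 lay above all controls and replicate 2 did not, but the range over the 6 libraries was 1.38-fold. Its log2 fold change of 0.13 (95% interval -0.25 to 0.51, limma adjusted p = 0.937) ran from 0.046 without Pax7-CreERT replicate 3 to 0.27 without Pax7-CreERT replicate 2. Its exons share 135 bases with 1700028N14Rik, a noncoding gene on the same strand for which no values were used here.

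Ratios between 2 of these genes inside a library depend on its scaling only through the constant of 1, which matters most for the faint Ikbke, and 9 were compared between genotypes. With 3 libraries against 3, or 2 against 3, the exact permutation test allows no p under 0.1, so no ratio could pass. For Ikbkb over Chuk, the difference in log2(CPM + 1) was 1.08, 1.07 and 1.18 in the Pax7-CreERT libraries and 1.22, 1.12 and 1.18 in the controls. The balance of the 2 catalytic subunit transcripts thus lay between 1.07 and 1.22 on the log2 scale in all libraries, and the groups differed by -0.067 (exact permutation p = 0.2, adjusted over 9 ratios p = 0.45). Tab3 over Map3k7 was -0.70, -0.76 and -0.82 with Cre and -0.74, -0.55 and -0.53 without, a difference of -0.15 (exact permutation p = 0.2, adjusted p = 0.45). Tab2 over Map3k7 gave a difference of -0.18 with the same exact permutation p. Both TAB ratios were lower on average with Cre in all 7 alternatives. Ikbke over Tbk1 had the widest range, from -3.52 in control replicate 1 to -1.96 in Pax7-CreERT replicate 1, and a difference of 0.60 (exact permutation p = 0.2, adjusted p = 0.45), or 0.78 with a constant of 0.25. In all 9 ratios the groups overlapped, and the lowest adjusted p was 0.45.

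**Figure D4:**
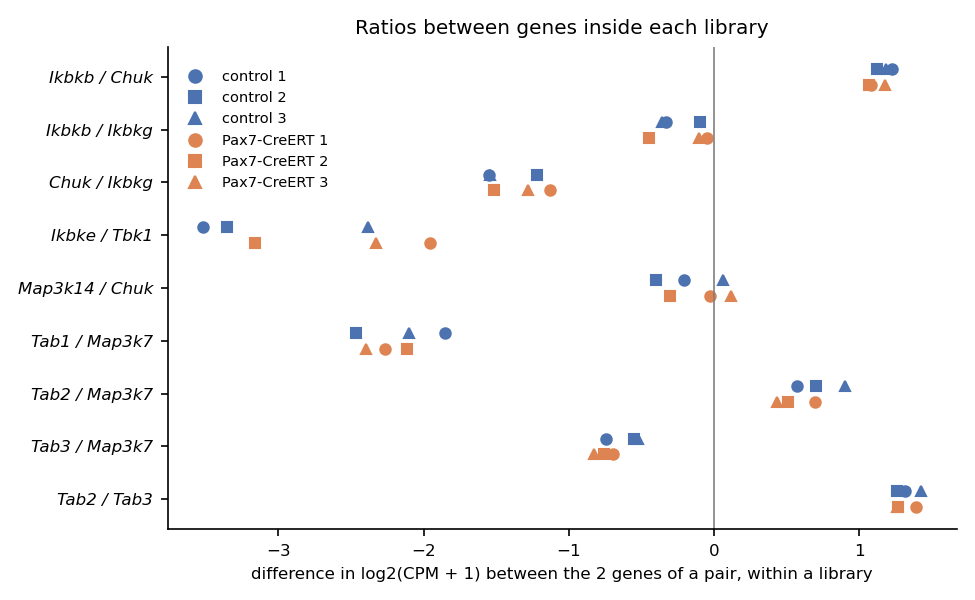
Difference in log2(CPM + 1) between the first and second gene of each pair (horizontal axis) in each library, controls in blue above and Pax7-CreERT libraries in orange below, with marker shapes for replicates 1, 2 and 3. Ikbkb over Chuk stays between 1.07 and 1.22, while Ikbke over Tbk1 runs from -3.52 to -1.96.

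Levels of the 10 genes were compared with each other only per 1000 bases (kilobase) of the principal GENCODE transcript. The values of cell type markers were not scaled by length. On that scale Tab2 was highest at 30.0 ± 1.99 CPM per kilobase (SD, n = 6 libraries), 2.02 times Map3k7, and the ranges of these 2 genes did not overlap. Map3k7 at 14.9 ± 1.52 and Ikbkb at 14.4 ± 0.908 CPM per kilobase did not differ beyond their spread. Ikbkb was 1.61 times Ikbkg (8.97 ± 0.733), with no overlap, while Ikbkg, Tab3 (8.19 ± 0.744) and Tbk1 (8.18 ± 0.877) overlapped. Chuk (6.54 ± 0.505), Tab1 (5.96 ± 0.859) and Map3k14 (4.94 ± 0.659) followed, each overlapping the next. Ikbke was lowest at 0.908 ± 0.455 CPM per kilobase, 5.45-fold below Map3k14. With the median length of all coding transcripts instead, Chuk, Tab1, Map3k14 and Ikbke kept the last 4 places in this order and Ikbkb stayed above Chuk in level. The upper places changed, and Tab3 came first at 73.7 CPM per kilobase. Ikbkg (29.8) rose to the third place, above Ikbkb (24.5) in all 6 libraries although their ranges overlapped, so the order of these 2 genes turned. This is because Tab3 and Ikbkg have annotated coding transcripts much shorter than the principal one. The median was 707 against 6364 bases for Tab3 and 2044 against 6785 bases for Ikbkg.

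**Figure D5:**
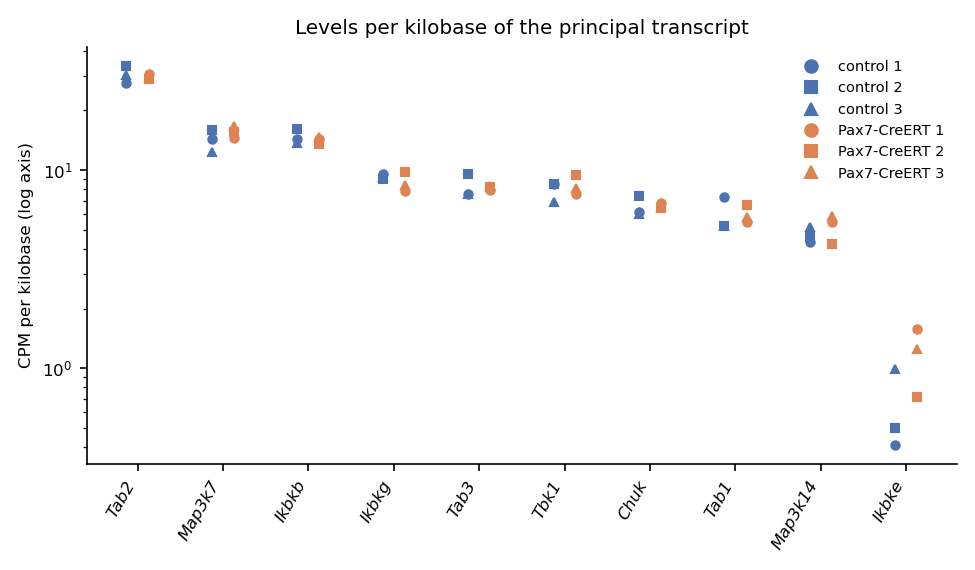
CPM per kilobase of the principal transcript (log axis) for the 10 genes in order of their mean, with controls in blue and Pax7-CreERT libraries in orange. Tab2 lies above all other genes and Ikbke below them in every library, and the neighbours from Ikbkg to Map3k14 overlap.

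Genes around the IKKs were read from 8 lists of receptors, adaptors, ubiquitin enzymes, kinases, chaperones and substrates, with 90 genes in all. Of these, 89 were in the table and 88 passed the filter and were tested. With limma, 0 of 88 passed as higher and 0 as lower. The log2 fold change was above 0 in 60 and below 0 in 28, beside 68.0% above 0 over all tested genes, and 1 gene, or 1.14%, had an unadjusted p under 0.05, beside 5.52% of all tested genes. List medians below are to be read beside the median of 0.089 over all tested genes, which other scalings brought to 0.0028 and 0.0043. The groups did not overlap in 4 genes, or 4.55%, beside the 11.0% of all tested genes.

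The 4 non-overlapping genes came from different steps of the pathway, and Irak4, outside the naming rule, was singled out after its values were seen. Mapk11, which encodes the p38beta kinase downstream of TAK1, was the gene with the low unadjusted p. Its level was 31.5, 31.2 and 34.4 CPM with Cre and 40.95, 45.7 and 53.3 CPM in the controls. Mapk11 had a log2 fold change of -0.51 (SE 0.14, limma adjusted p = 0.891). Tax1bp1, an adaptor of the ubiquitin-editing enzyme A20, averaged 146 ± 5.71 against 173 ± 14.5 CPM, with a limma adjusted p of 0.896. Irak4, a kinase below interleukin-1 and Toll-like receptors, averaged 25.2 against 22.1 CPM, and Relb, the NF-kB subunit of the alternative pathway, 14.3 against 12.97 CPM, both with an adjusted p near that of the other genes (0.899 and 0.925).

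Among 19 receptors, 10 were above 0 and 9 below (median log2 fold change 0.037), with the largest changes in the Toll-like receptor genes Tlr9 (1.67 ± 1.28 against 2.77 ± 0.819 CPM, SD) and Tlr6 (10.6 ± 1.53 against 7.84 ± 2.41 CPM). Of 24 adaptors and ligases tested, 18 were above 0 and 6 below (0.072). The kinase gene Irak2 measured 39.7 ± 7.16 against 48.2 ± 3.46 CPM and the TNF receptor adaptor gene Traf1 6.39 ± 0.540 against 5.44 ± 2.16 CPM. The linear ubiquitin ligase and deubiquitinase list stood at 8 above and 4 below (0.057). In it Tnfaip3, which encodes A20, an enzyme that limits IKK activation, measured 141, 70.8 and 119 CPM with Cre and 101.5, 89.1 and 84.9 CPM without. Its Pax7-CreERT replicate 2 was the lowest of the 6 libraries and replicate 1 the highest.

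Other MAP3 kinases stood at 5 above and 2 below (median 0.070), with Map3k4 at 55.8 ± 2.67 against 48.8 ± 5.46 CPM and Map3k5 at 34.7 ± 3.12 against 31.3 ± 1.35 CPM. The chaperones that fold IKK subunits stood at 2 above and 1 below, with a median of 0.33. The kinase co-chaperone gene Cdc37 had a log2 fold change of -0.0073 (mean 64.4 CPM with Cre and 65.1 CPM without, limma adjusted p = 0.994) and was named after its values were seen. Hsp90ab1 measured 494, 541 and 576 CPM in the Pax7-CreERT libraries and 494, 485 and 297 CPM in the controls. Hsp90aa1 measured 139, 148 and 134 CPM against 136, 119 and 84.9 CPM. Control replicate 3 was the lowest library for both, and their limma adjusted p was 0.896.

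The adaptors and substrates of TBK1 and IKKe stood at 4 above and 3 below (median 0.029), with the autophagy adaptor gene Optn at 16.4 ± 3.26 against 14.3 ± 2.34 CPM (SD) and the adaptor gene Tank at 36.7, 42.5 and 55.8 CPM with Cre and 31.8, 43.9 and 47.6 CPM without. Of the 8 NF-kB and IkB genes whose products the IKKs phosphorylate, 7 were above 0 and 1 below (0.097, close to the median of all tested genes). Rel, which encodes c-Rel, measured 68.7, 42.3 and 83.9 CPM with Cre and 51.7, 49.98 and 48.6 CPM without. As for Ikbke, Map3k14 and Tnfaip3, its Pax7-CreERT replicates 1 and 3 lay above all controls and replicate 2 did not. That order was picked out after the values were seen. How many of all tested genes share it was not counted, and a common cause was not tested. MAP kinases downstream of TAK1 stood at 6 above and 2 below (0.11), with Map2k6 at 9.82 ± 0.476 against 8.95 ± 2.38 CPM.

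Profiles over the 6 libraries were matched by the root mean square difference of log2(CPM + 1), each gene centred on its own mean, among genes of 0.5 to 2 times the mean level. For Ikbkb the nearest of 4195 candidates were Exoc8 (0.019), Nub1 (0.035) and Mllt10 (0.037), where the median candidate differed by 0.18. All 3 were highest in control replicate 2 and lowest in control replicate 3. Ikbkb was also highest in control replicate 2, but its lowest value was in Pax7-CreERT replicate 2 (48.4 CPM, beside 48.8 CPM in control replicate 3). For Ikbke, which had the largest SD on the log2 scale, the nearest of 2976 candidates were the chemokine gene Ccl24 (0.14), 4930473A02Rik (0.14) and Rtl3 (0.15), beside a median of 0.56. Ccl24 measured 3.15, 1.20 and 2.44 CPM in the Pax7-CreERT libraries and 1.003, 0.674 and 1.97 CPM in the controls. Because they were picked as the nearest of many candidates, these matches lie below the median difference by construction. They rest on 6 libraries and are given as a description.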

How the data were processed

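The authors deposited 1 table of CPM for 6 libraries, with 0.0001 added to each value, as read from the column sums; the constant was subtracted. Per the submitters' processing notes, Partek, DESeq2 and the build mm10 were used, with no role given; the aligner, counting rule, strand setting and annotation release are not given in the sources used here. Genotype labels set the groups; replicate numbers follow record order and pair nothing. Depth came from the smallest CPM step. Of values up to 20 reads, 92.8% to 93.8% were whole within 0.05 read, too few to recover counts for the table, although all 60 values of the 10 genes were whole.

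Groups were compared with limma 3.58.1 (R 4.3.3) on log2(CPM + 1), with a mean-variance trend, for 14763 genes that reached 1 CPM in 3 or more libraries; p-values were Benjamini-Hochberg adjusted over these genes with a threshold of 0.05. The procedure was tested on simulated data with changes planted only in genes at or above the median level, so faint genes were not covered. The simulation drew noise for each gene independently and held no outlying library such as control replicate 3. Its outcome is not given here. Ratios were compared with exact 2-sided permutation tests. Ends in the table were 1 base past those of RefSeq (GRCm38.p6) for 11051 of 17013 matched symbols, so 1 was subtracted. Transcript lengths and overlaps came from GENCODE M21. In each surrounding list the 2 genes with the largest absolute fold change were named. The genes and lists were chosen with earlier results of these data known. Alternatives were the constant, the filter, 2 scalings, removal of haemoglobin genes, array weights and leaving out each library.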

Additional observations from a re-analysis of the deposited data

How the results depend on the processing

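For none of the 10 genes did any of the 12 alternatives give an adjusted p under 0.05 with limma; the lowest was 0.583, for Ikbke. Ikbkg, Ikbke, Map3k7 and Map3k14 kept their sign throughout, and the sign turned in 20 of the 120 gene and alternative combinations. Median ratio scaling turned Chuk (-0.067), Tbk1 (-0.023) and Tab1 (-0.066), and quantile normalization turned the same 3 (-0.064, -0.022 and -0.077). Removal of haemoglobin genes turned Chuk (-0.028) and Tab1 (-0.028), and array weights turned Chuk (-0.036). Both scalings moved the median of all genes from 0.089 to 0.0028 and 0.0043, and 3 of the 10 genes were then above 0 and 7 below.

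Leaving out 1 library at a time gave log2 fold changes of -0.094 to 0.021 for Ikbkb, -0.030 to 0.12 for Chuk, -0.19 to -0.038 for Ikbkg, 0.48 to 0.93 for Ikbke, -0.028 to 0.13 for Tbk1, 0.049 to 0.23 for Map3k7, 0.046 to 0.27 for Map3k14, -0.055 to 0.18 for Tab1, -0.10 to 0.036 for Tab2 and -0.066 to 0.10 for Tab3. For the ratios that turned it gave -0.015 to 0.18 (Ikbkb over Ikbkg), -0.28 to 0.024 (Tab1 over Map3k7) and -0.070 to 0.018 (Tab2 over Tab3). The count of genes past the threshold was 1, Zfp697; it was 2 with no filter and from 0 to 1 with a library left out, 0 in every case but without control replicate 3. The cause of these changes was not tested. Where a group was left with 2 libraries, the spread was pooled over both groups. No paired analysis was possible because the labels number no replicates. Depth limits Ikbke most: with 8 to 49 reads per library its counting SD was 14.3% to 35.4%.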
